A study of Drosophila melanogaster with 4 samples.

Results

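The 295 binding regions of the transcription factor cap'n collar (CNC) on chromosome arm 2L of Drosophila melanogaster are described here. They are all the peaks of the deposited list whose sequence name is 2L, of 1684 peaks in all and 1641 on the 5 major arms. The 1 peak on 2LHet, the separately assembled heterochromatin of the arm, is not among them. Chromatin immunoprecipitation with sequencing (ChIP-seq), in which a factor is crosslinked to DNA and pulled down with its antibody, was done on adult females aged 2 to 3 days. There were 2 CNC ChIP libraries and 2 input libraries, input being chromatin DNA that was not pulled down. All 4 came from the strain Y cn bw sp, whose genotype holds the body and eye colour alleles bw[1], cn[1] and y[1] with sp[1], the gustatory receptor alleles Gr22d[1] and Gr22b[1], and the alleles Rh6[1] of a rhodopsin, LysC[1] of a lysozyme and GstD5[1] of a glutathione S-transferase. It also holds oc[R3.2], lab[R4.2], CG33964[R4.2] and MstProx[1]. The rabbit polyclonal antibody KW0-CNC was raised against a fragment of CNC. Which part of the body gave the chromatin, and whether the numbered replicates were separate fly collections, is not given in the sources used here.

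CNC is a basic leucine zipper protein and the fly member of the family that holds vertebrate NRF2. Its long isoform pairs with a small Maf protein on antioxidant response elements and switches on detoxification and redox genes, and it is held in check by Keap1. Shorter isoforms pattern the head of the embryo. On the reference sequence, arm 2L is counted from the telomere towards the centromere, so low positions are distal.

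A peak is listed by its first and last base and by 1 score from the authors' caller, MACS. Values of the separate libraries are not in the list. No peak therefore has a replicate error, read depth is unknown, and no test between 2L and the other arms was made. The exact 95% intervals below treat peaks as independent and hold only counting error. Differences between arms are therefore descriptions. Positions are those of FlyBase release 5. Genes and sequences under the peaks are not analysed here.

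On 2L, CNC peaks reached from 72384, where a 697 bp peak scored 46.97, to 22240060, the end of a 464 bp peak that scored 15.76. This span of 22.2 Mb held 13.3 peaks per Mb, against 14.8 per Mb on 2R, 3L, 3R and X together. The ratio was 0.90, and its interval, 0.79 to 1.02, includes 1. Taken singly, 2R held 17.7, X 14.8, 3R 14.0 and 3L 13.4 per Mb, so 2L and 3L lay side by side at the low end. The 2L peaks covered 191 kb in all, against 817 kb under peaks in the 90.8 Mb of the other arms.

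The 2L peaks were unevenly placed along the arm. Cut into bins of 1 Mb by their centres, they filled 23 bins with between 2 and 35 peaks and a median of 12. The bin from 16 to 17 Mb held the 35, which is 11.9% of the peaks of the arm. The next fullest were the bins from 2 to 3 Mb with 22 peaks and from 8 to 9 Mb with 20. At the other end, 4 bins held 4 peaks or fewer. These were 4 to 5 Mb and 15 to 16 Mb with 4 peaks each, 17 to 18 Mb with 3, and the last bin of the arm, from 22 Mb, with 2. The fullest bin thus lies between a pair of sparse ones. It owes its place to closely set peaks, since with peaks less than 5 kb apart joined the fullest bin held 15 and was the one from 3 to 4 Mb. Cut in the middle of its span, the arm held 175 peaks on the telomere side (59.3%, interval 53.5 to 65.0%) and 120 on the centromere side, each 11.1 Mb long. The median score was 19.7 on the telomere side and 22.2 on the centromere side, and the median length was 437 bp on the telomere side and 487 bp on the centromere side.

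**Figure D1:**
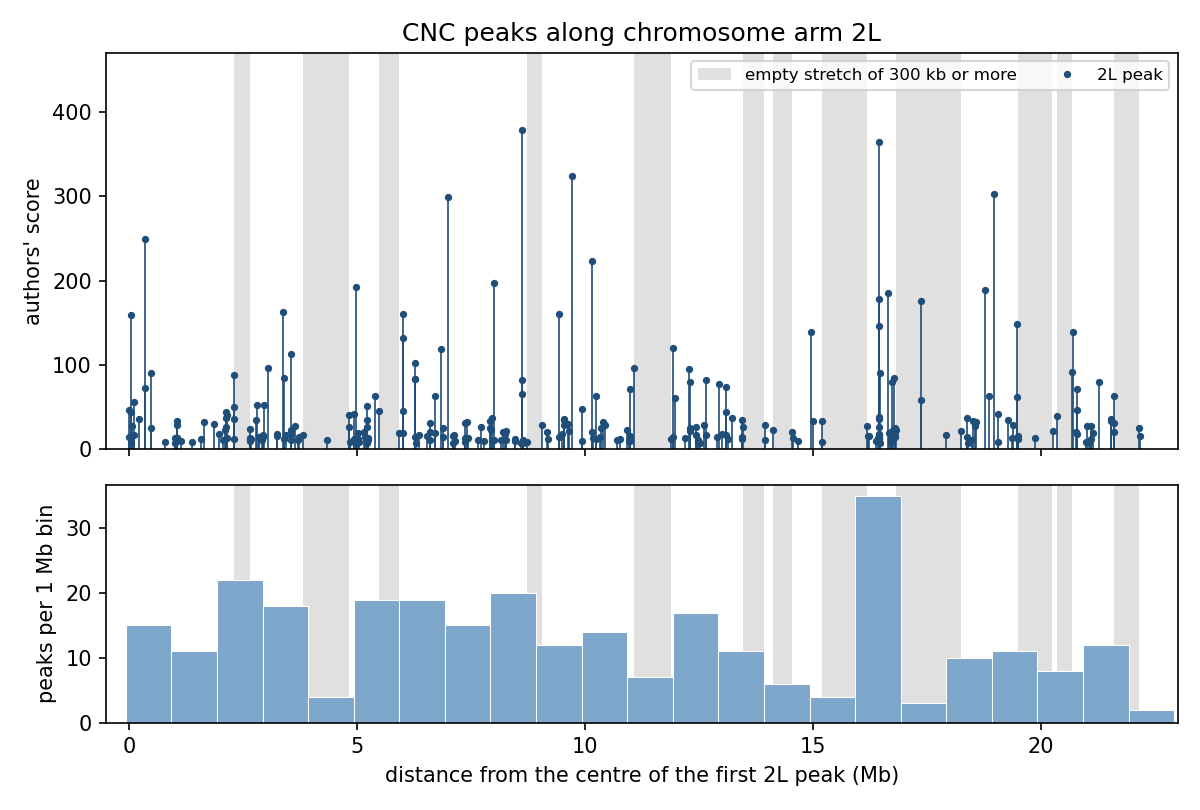
CNC peaks along 2L, as distance in Mb from the centre of the first peak. The upper panel gives each peak's score as a line and a point and shades the 16 empty stretches of 300 kb or more. The lower panel gives the number of peaks in each 1 Mb bin. The fullest bin holds 35 peaks, which lie between shaded stretches that reach into the bin.

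Empty stretches took up a larger share of 2L than of any other arm in the list. Intervals of 300 kb or more between the end of a peak and the start of the next numbered 16 on 2L and added up to 7.85 Mb, or 35.4% of the span. The same measure gave 23.9% over the other 4 arms, with 51 such stretches, and ran from 21.7% on 3R to 26.4% on 3L. As a share of neighbouring pairs, such stretches made up 5.44% on 2L (3.14 to 8.69%) and 3.80% on the other arms, which lies inside the 2L interval. The order in share of the span did not rest on the limit of 300 kb alone. With a minimum of 200 kb the shares were 54.7% on 2L and 44.9% on the other arms, and with a minimum of 500 kb they were 17.9% on 2L and 8.29% on the other arms. Among the higher-scoring 842 peaks of the list the shares were 55.8% on 2L and 48.8% on the others, and there X, at 56.3%, was above 2L. Among the highest 421 peaks the share was 80.6% on 2L and 74.7% on the other arms, and there 3L, at 80.2%, was close to 2L.

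Stretches from the end of an arm to its first or last peak were not counted, so a longer peak-free end of another arm would not appear here. Of the intervals between neighbouring peaks, the 2 longest of all 5 arms lay on 2L. The first, of 985 kb from 15271880 to 16257119, separated a peak that scored 9.16 from one that scored 27.32. The second, of 815 kb from 11155830 to 11970784, began beside a 570 bp peak that scored 96.69 and ended at one that scored 12.18. No interval between neighbouring peaks on another arm was longer than 711 kb. The third on 2L followed the last peak of the fullest bin, with 561 kb from 16886660 to 17447685. The fourth, 544 kb from 21682148 to 22226252, left 2 peaks beyond it at the centromere end of the arm. The fifth, 537 kb from 17451466 to 17988833, started at a 1670 bp peak that scored 176.09, the 13th highest score of 2L. Among the peaks that bound the 16 stretches, this peak alone scored above 100, and the next highest scored 96.69. The 29 peaks that bound the 16 stretches had a median score of 22.7, with a range of 8.85 to 176.09, against 20.3 for all 2L peaks.

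Some of these stretches were divided by 1 peak only. The sixth and the seventh, of 523 kb from 3896198 to 4419532 and of 475 kb from 4419780 to 4894809, met at a 247 bp peak that scored 10.87. Apart from it, 999 kb of 2L held no peak. In the same way, the peak at 17988834 to 17989066, of 233 bp and scoring 17.09, was the only one in 863 kb. The peak at 19935482 to 19935794, of 313 bp and scoring 13.56, was the only one in 750 kb. All 3 dividing peaks were short and below the median score of the arm. The eighth stretch, of 462 kb from 13550233 to 14011806, lay between peaks that scored 26.31 and 11.48.

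The 16 empty stretches divided the arm into 17 runs of peaks, with between 1 and 55 peaks and a median of 18. The run of 55 covered 2.82 Mb from 5983092 to 8804702. Of its 55 peaks 7 scored above 100, where 26 of all 295 peaks of 2L did (8.81%), a difference that was not tested. The most crowded of the long runs was the one from 16257120 to 16886659, with 35 peaks in 630 kb, or 55.6 per Mb, and a median score of 17.4. It was bounded by 985 kb without a peak on the telomere side and by 561 kb on the centromere side. Between the empty stretches 2L held 20.6 peaks per Mb, against 19.5 per Mb on the other 4 arms treated in the same way. Leaving out empty stretches raises this density on every arm by construction, and by the largest factor on 2L, which has the largest empty share. The order of 2L and the other arms was the opposite of that over whole spans, and this restates the empty share. Single arms ran from 17.9 on 3R to 22.9 on 2R.

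**Figure D2:**
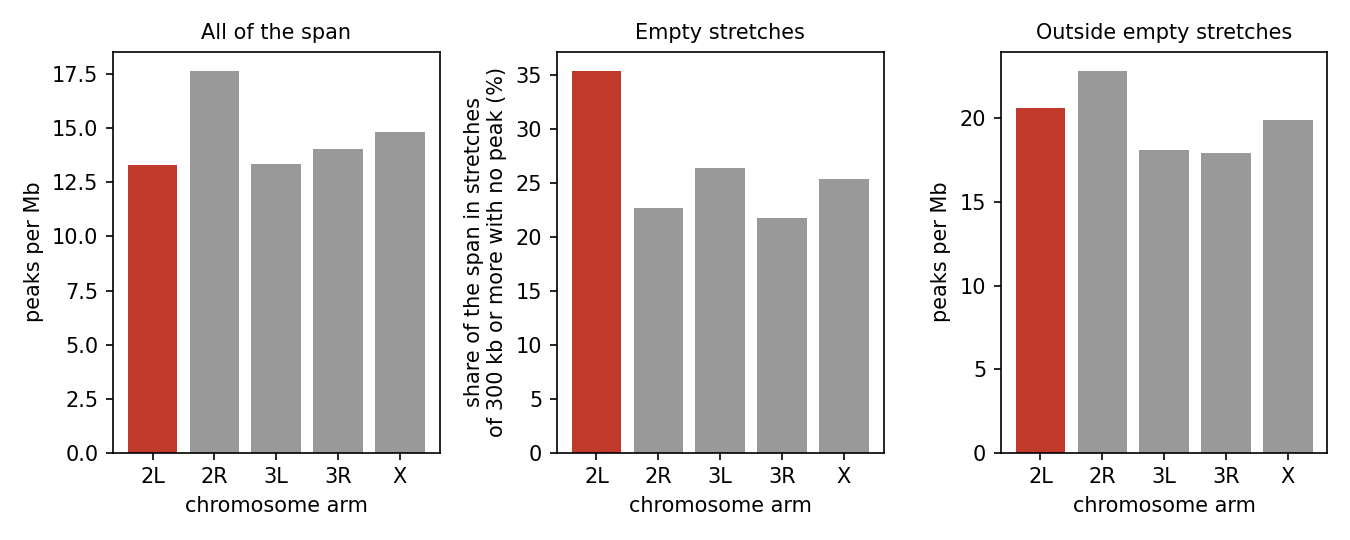
Peaks per Mb of span (left), share of the span in empty stretches of 300 kb or more (middle) and peaks per Mb outside those stretches (right), 1 bar for each arm with 2L in red. 2L has the lowest bar on the left, at 13.3 per Mb, the highest in the middle, at 35.4%, and the second highest on the right, at 20.6 per Mb.

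Peaks of 2L otherwise lay about as close together as those of the other arms. From centre to centre, neighbours were a median of 24.5 kb apart (interval 17.2 to 33.6 kb, 294 pairs), against 24.2 kb on the other 4 arms (20.9 to 29.1 kb, 1342 pairs). Centres within 5 kb of each other made up 27.6% of neighbouring pairs on 2L (22.5 to 33.0%) and 27.3% on the other arms (24.9 to 29.7%). Less than 1 kb lay between the edges of 51 pairs on 2L, or 17.3% (13.2 to 22.2%), against 15.6% on the other arms. The closest pair on 2L was 51 bp apart. The curves of distance by arm overlap over most of their length, and 2L leaves the others at the far right.

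**Figure D3:**
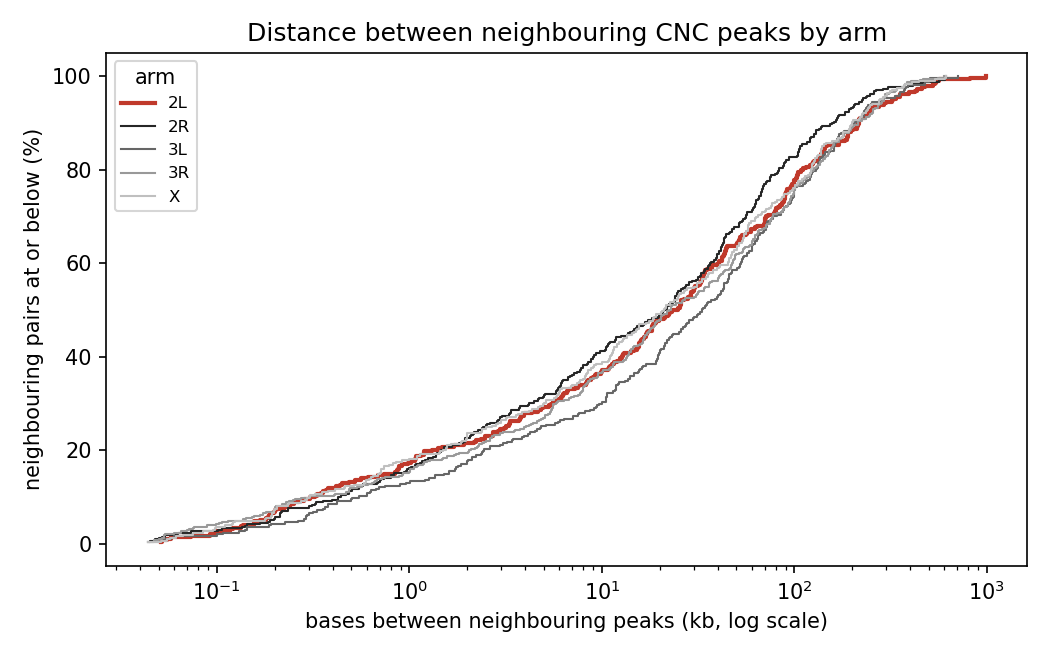
Share of neighbouring pairs, in percent, whose edges lie at or below a distance in kb (log axis), with 2L as the thick red line and 2R, 3L, 3R and X in black to grey. The 2L line runs among the others for most of its length and ends at 985 kb, past the 711 kb at which the longest of the other lines ends.

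Joined where less than 5 kb lay between edges, the 2L peaks formed 164 single peaks, 28 pairs and 17 larger groups. These groups and pairs held 131 peaks, 44.4% of the arm (38.6 to 50.3%), against 45.8% on the other arms. A group of 16 peaks from 16511311 to 16541286 was the largest on any arm, and the next largest groups held 6 peaks on 2L and 10 on the other arms. The group of 16 thus stood well apart in size from the rest of 2L.

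The group of 16 filled 30.0 kb, of which 43.6% was under peaks. It consisted of 1 strong peak, several strong peaks on its centromere side and weak peaks around them. The strong peak, 2390 bp long at 16525420 to 16527809, scored 364.3, the second highest score of 2L. Past it, a 1767 bp peak at 16529348 to 16531114 scored 146.09. A 1270 bp peak at 16532517 to 16533786 scored 178.76, and a 1382 bp peak at 16534854 to 16536235 scored 90.46. All the other 12 members scored 38.36 or less. On the telomere side the highest of them, at 16521249 to 16521955, scored 38.36, and its neighbour of 1237 bp at 16519832 to 16521068 scored 26.05. In all, 9 of the 16 scored below 20, and the lowest, at 16540907 to 16541286, scored 7.75. The median distance between edges inside the group was 305 bp, and the longest was 4671 bp. The group lay 62.7 kb from the previous peak and 190 kb from the next.

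The group of 6, from 8689533 to 8707899, was shaped differently. Its first peak was its strongest and the strongest of 2L, with a score of 378.38 over 5217 bp, and nothing was called within 16.2 kb on its telomere side. The second peak, of 5232 bp, scored 66.17, and the one after it, of 1952 bp, scored 82.76. The last 3 were 201 to 300 bp long and scored between 7.59 and 11.60. Here 71.5% of 18.4 kb was under peaks. A score above 100 was held by 1 of the 6, and by 3 in the group of 16. These are similar shares of small groups, where 8.81% of all 2L peaks passed 100.

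**Figure D4:**
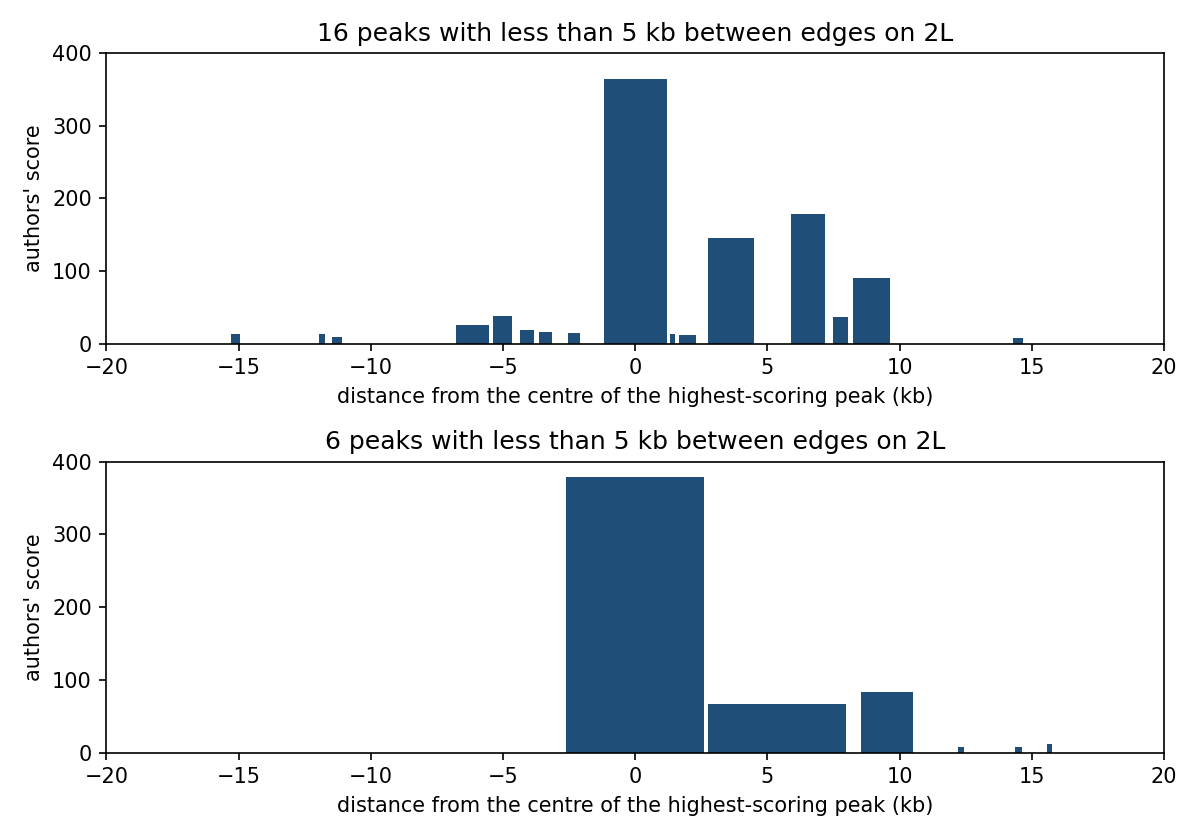
The group of 16 peaks (top) and the group of 6 peaks (bottom), with each peak drawn to its length at its distance in kb from the centre of the highest-scoring peak and as high as its score. Strong and weak peaks lie mixed to the right of the peak of 364.3, while in the group of 6 the peak of 378.38 is the first and the scores beyond it are 82.76 or less.

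The crowded stretches of 2L differed in the strength of their peaks. In windows of at most 100 kb, the densest held 17 peaks, the 16 of the group and 1 more at its telomere side, with a median score of 16.6. Such crowding was not particular to 2L, since the densest window of 2R held 16 peaks. The second window of 2L held 13 peaks from 16792612 to 16886659, in the same run. Its highest score was 84.83, at a 1165 bp peak from 16856409 to 16857573. The third held 9 peaks from 5230873 to 5306725. Its highest score was 51.08, at 5292171 to 5293304, and its median was 14.6. The fourth, at the telomere end from 72384 to 168583, held 8 peaks with a highest score of 158.81 at 106437 to 108212. The fifth was the group of 6 with 1 peak before it, and held 7 peaks in 34.8 kb. Its highest score, 378.38, was the highest of 2L, while its median was 11.6. Together the 5 windows held 54 peaks, 18.3% of the arm, in 1.78% of its span. Their median scores lay between 11.6 and 22.0, against 20.3 for all 2L peaks.

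Members of groups were split into the highest of each group and the rest. The highest of each of the 45 groups and pairs on 2L had a median score of 37.5 and a median length of 697 bp, and the other 86 members had 15.2 and 452 bp. The 164 single peaks lay between them in score, at 20.4, with a median length of 432 bp. Being the highest of several raises a score by construction, so these medians are a description. On the other 4 arms the highest members had a median score of 44.5, the others 14.0 and single peaks 20.5. The others were 452 bp long on 2L (380 to 515 bp) and 360 bp on the other arms (343 to 382 bp), a difference for which no test was made. In the 51 pairs of 2L with under 1 kb between edges, the higher score had a median of 37.5 and the lower one of 14.6. In none of these pairs did both peaks pass 100, a score that only 8.81% of 2L peaks passed.

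Scores on 2L were spread much like those elsewhere. The median was 20.3 (18.29 to 24.98) on 2L and 19.8 (18.9 to 20.9) on the other arms, and 9 in 10 peaks scored below 91.1 on 2L and below 108 on the other arms. A score above 100 was held by 26 of the 295 peaks, or 8.81% (5.84 to 12.6%), where 10.6% of all peaks in the list passed it. A score above 200 was held by 7, or 2.37% (0.959 to 4.83%), against 2.85% of the list. Both shares of 2L are near those of the list, which lie inside the intervals. Of the 410 highest-scoring peaks of the 5 arms, 69 lay on 2L (16.8%, 13.3 to 20.8%), while 2L held 18.0% of all peaks on these arms. It held 84 of the next 410, which scored from 20.03 to 43.52 (20.5%, 16.7 to 24.7%).

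The strongest sites of 2L lay on both the telomere side and the centromere side of the arm. None of the 15 highest-scoring peaks lay between 10222438 and 16525420, or past 19053334. Of the 15 highest-scoring peaks, 14 were longer than 1000 bp, against 48 of all 295 peaks of 2L (16.3%). Edges and score were set by the same caller, so the 2 are not separate measures. Of the same 15 peaks, 10 (66.7%, 38.4 to 88.2%) stood at least 5 kb from any other, as did 164 of all 295 peaks of 2L (55.6%). The third, at 9788627 to 9791633, was 3007 bp long with a score of 324.45, and its nearest neighbour lay 59.4 kb away. The fourth, of 1602 bp at 19051733 to 19053334, scored 302.99 and was 80.6 kb from the next peak. The fifth, of 2634 bp at 7063400 to 7066033, scored 299.83 with 96.9 kb to the nearest peak. These 3 were among the most remote of the strong sites. The sixth, at 420429 to 421952, scored 249.53 and lay 5.65 kb past a weaker peak. The seventh, at 10220878 to 10222438, scored 223.85 and had a neighbour 9.23 kb away. No other 2L peak passed a score of 200.

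The next 8 scored between 160.62 and 197.80. The eighth, at 8070636 to 8071718, scored 197.80 and was 15.9 kb from its nearest neighbour. The ninth, at 5058788 to 5060467, scored 192.45 with a neighbour at 12.7 kb. The tenth, at 18856978 to 18858511, scored 189.18 and stood 84.1 kb from any other. The eleventh and the thirteenth each had 1 close companion. A 601 bp peak that scored 19.32 began 331 bp past the eleventh, at 16731209 to 16732229 with a score of 186.05. The thirteenth, at 17449796 to 17451465, lay 1076 bp past a 1034 bp peak that scored 59.15. The 2 of them formed the only peaks in 1102 kb. The twelfth was the peak of 178.76 in the group of 16. The fourteenth, at 3452398 to 3453991, scored 163.52 and was 15.7 kb from the nearest peak. The fifteenth, at 6088261 to 6088908, scored 160.62 over only 648 bp, the shortest of the 26 peaks of 2L above 100.

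Of these 26 peaks, 15 were single (57.7%, 36.9 to 76.6%, near the 55.6% of all 2L peaks) and 11 lay in groups or pairs. The longest interval between neighbours among them ran over 3.03 Mb, from the peak at 420429 to the one at 3452398. It was not empty, since it held 42 weaker peaks with scores up to 96.70. Thus 2L had stretches with many peaks and none above 100, a score that only 8.81% of its peaks passed. In 8 of the 23 bins of 1 Mb no peak passed 100. With 26 such peaks over 23 bins, bins without one can arise by counting alone, and no expected number was computed.

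Remote peaks of 2L were of mixed score. On 2L, 11 had no other peak within 100 kb on either side, or 3.73% (1.88 to 6.57%), against 5.65% on the other arms (4.47 to 7.02%). The share on the other arms lies inside the interval for 2L. Their median score on 2L was 17.1 and their median length 307 bp, and 5 of the 11 scored above the median of the arm. The strongest, at 21344243 to 21344931, scored 79.70 over 689 bp. The next, at 286536 to 287050, scored 35.85, and the third, at 9125590 to 9126006, scored 28.61. None of the 26 peaks above 100 was this remote, but with 3.73% of all 2L peaks remote, 26 are too few to set them apart.

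Lengths on 2L ran from 201 to 5232 bp with a median of 470 bp (427 to 516 bp), against 444.5 bp on the other 4 arms (425 to 467 bp). A length above 1000 bp was found for 48 peaks, or 16.3% (12.2 to 21.0%), where 13.7% of the list was that long. The 5 longest were the first 2 peaks of the group of 6, then the sites that scored 324.45, 299.83 and 364.3. Long peaks were not all strong. The median score of the 48 was 96.1, but 10 of them scored below 42, and the longest peak of the arm, at 8694886 to 8700117, scored 66.17. The weakest 2L peak, at 6371069 to 6371280, was 212 bp long and scored 7.48, 19.1 kb from its nearest neighbour. Edges and score were set by the same caller, and so length is not a separate measure of strength. Lengths at like score can be set side by side in 5 classes of score. Up to a score of 13 the median was 257.5 bp on 2L (247 to 292 bp) and 261 bp on the other arms (249 to 269 bp). Above 13 and up to 20 it was 373 bp on 2L (327 to 405 bp) and 366 bp on the other arms (349 to 385 bp). In these lower classes the medians lay close together. Above 20 and up to 42 it was 564 bp on 2L (501 to 644 bp) and 511.5 bp on the other arms (487 to 552 bp), and above 42 and up to 100 it was 855 bp on 2L (689 to 1034 bp) and 785 bp on the other arms (726 to 833 bp). Above 100 it was 1577.5 bp on 2L (1267 to 1680 bp) and 1325.5 bp on the other arms (1220 to 1450 bp). The median of 2L was the longer one in the 4 classes above 13, and in each class the intervals overlap.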

How the data were processed

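The 4 libraries were grouped by their titles. Per the submitters' processing notes, the tools were MACS2, BWA and 2 versions of CASAVA, 1.7.0.3 and 1.7.0.2, and the build was BDGP5, and per the file header the deposited positions are on FlyBase release 5. The authors' score is 1 value for each peak. The sources used here do not give the caller statistic behind it, its threshold, or the use made of replicates and inputs, so it was used only to rank, filter and describe peaks. Start and end are counted from 1, the centre is the midpoint, and no other per-sample columns exist.

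Python 3.11.15 with numpy 2.4.6, pandas 2.3.3, scipy 1.17.1 and matplotlib 3.10.9 was used. The span of an arm runs from its first to its last peak. Medians carry binomial order-statistic intervals and shares carry Clopper-Pearson intervals. The functions were tested on simulated peaks. Named were the 15 highest and 5 longest peaks, the 5 densest windows, the 8 longest empty stretches, the 3 strongest peaks without another within 100 kb, the first, last and weakest peak. Others were named after their values were seen, among them members of the groups of 16 and 6. Members, lists and measures were chosen with earlier results of these data known. Gene and sequence descriptions were planned only for an annotation and a genome of the same build and are not analysed here.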

Additional observations from a re-analysis of the deposited data

How the results depend on the processing

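No paired analysis was possible because the peaks carry no values for separate libraries, so leaving out a replicate was not possible either. The density ratio of 2L to the other arms stayed below 1 in 9 alternatives, from 0.80 to 0.95. One of them, without the group of 16 peaks, gave 0.85 with an interval of 0.74 to 0.97 and was, like the settings for the fullest bin, chosen after seeing the data. It took peaks from 2L only, which lowers the ratio by construction. The intervals of all the other alternatives include 1. Among the higher-scoring 842 peaks, the higher-scoring 421 and peaks closer than 5 kb joined, the median length on 2L was 707, 1080 and 570 bp. The median spacing was 75.9 kb among the 842, 143 kb among the 421, and 37.1, 52.1 and 92.0 kb after joining at 1, 5 and 20 kb. The share of neighbours within 5 kb was 17.1% among the 842, 13.2% among the 421, 11.9% after joining at 1 kb and 36.1% under a limit of 10 kb. The densest window held 7 peaks with joining at 1 kb, from 16792612 to 16886659, and 5 with joining at 5 kb, from 2129533 to 2226970. The fullest bin held 14 peaks among the 842, from 16 to 17 Mb, and 8 among the 421, from 6 to 7 Mb. It held 15 with joining at 5 kb, from 3 to 4 Mb, and 22 without the group of 16, from 2 to 3 Mb. The longest empty stretch ran from 3713666 to 4894809 among the 842 and from 13177318 to 15037758 among the 421. Empty stretches numbered 34 with a minimum of 200 kb. Fewer or joined peaks lie farther apart, and stricter lists hold longer peaks, by construction. How far depth limits weak peaks and empty stretches is unknown.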

Other observations

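Scores on 2L were sometimes repeated. The 295 peaks had 273 distinct scores, and 40 of them, 13.6%, shared a score with another 2L peak, while 91, 30.8%, shared one with a peak outside 2L. The scores found most often, 10.87 and 22.16, occurred 4 times each on 2L, and the highest score held by more than 1 peak of the arm was 79.70.

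The heterochromatic sequence 2LHet held 1 peak, of 752 bp at 368042 to 368793 with a score of 16.47, which 179 of the 295 peaks of 2L exceeded.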
